A study of Mus musculus with 12 samples.

Results

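Adipose tissue of Bbs2-/- mice fed the inhibitor Genz667161 was set against adipose tissue of wild-type (WT) mice, to ask what differs from WT under treatment. The comparison took the libraries whose titles give the knockout with inhibitor and those whose titles give WT, which are 8 of the 12 libraries of the series, 4 in each group. All mice had a mixed C57BL/6 x 129/SvJ background, and tissue was taken at 6 months of age. The treated Bbs2-/- mice had the inhibitor in their feed at 0.033% by weight from 2 to 6 months of age, and the WT mice had no treatment. Genotype and drug therefore both differ between these groups, and their parts in a difference cannot be told apart within this comparison. The other 4 libraries, from untreated Bbs2-/- mice of the same background and age, entered the fit to share the estimate of spread. Their levels are given beside those of the 8 for some of the genes named. The labels name neither the fat depot nor the sex of the mice, and they number the samples without tying each to a mouse of its own. The p-values therefore rest on variation among these samples, some of which may be technical.

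BBS2 is a subunit of the BBSome, a coat-like protein complex that carries membrane receptors into and out of primary cilia, and Bbs2-/- mice become obese. Genz667161 inhibits glucosylceramide synthase, encoded by Ugcg, the enzyme that adds glucose to ceramide and so makes the first glycosphingolipid. White adipose tissue stores triglyceride in adipocytes, which insulin drives toward glucose uptake and fat synthesis and away from fat release, and in obesity the tissue commonly gains macrophages.

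The libraries held 16317865 to 20224200 estimated counts. Levels are given as CPM, the count of a gene per 1000000 counts of the scaled library size. The summed level of 4 Y-linked genes was 188.2 to 251.7 CPM in WT, 193.7 to 232.9 in treated and 213.7 to 221.3 in untreated libraries. All 12 libraries therefore held RNA of male tissue. The adipocyte markers Adipoq (2909 to 4895 CPM in WT, 2570 to 4688 in treated) and Plin1 (1455 to 2004 and 1457 to 2593) were abundant in all 8 libraries. RNA of neighbouring tissue was present in some of them: Foxj1, the master regulator of motile cilia, had 48 counts in WT 1, 164 in WT 4, 154 in treated 1 and 140 in treated 3. No other of the 8 libraries had more than 2. The ciliary genes Ccdc39 (3 CPM or more against at most 1.47) and Rsph1 (2.28 or more against at most 0.6) separated the same 4 libraries. Tekt1 did not, with 5.88 CPM in treated 2 and 2.5 in WT 1, and the summed level of the motile cilia list was 125 CPM in WT 2 against 109.5 in WT 1. WT 1 stood apart further, with the epididymal gene Crisp1 at 1082 CPM (at most 0.29 in the other 7) and the smooth muscle gene Myh11 at 697 CPM (67.4 to 112 in the other WT libraries). Other epididymal genes were scarce in WT 1: Lcn5 had 8 counts, and Adam7 and Rnase9 had 0, while Adam7 had 17 in WT 4. The summed epididymal list was 1214 CPM in WT 1, 75.65 in treated 1 and 10.93 in WT 4. It was at most 0.708 in the rest of the 8 libraries. Among the 8 libraries the first principal component, with 26.4% of the variance, mixed the groups, running from -38.4 to 34.7 in WT and from -57.7 to 40.9 in treated. The 4 libraries with 48 or more Foxj1 counts were the 4 with negative values.

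In edgeR's quasi-likelihood test, 41 of 15968 genes differed between treated Bbs2-/- and WT at an adjusted p under 0.05, which is 0.257% of those tested. Of these, 28 were higher in treated libraries (0.175%) and 13 lower (0.0814%), and 21 differed by at least 2-fold. At an unadjusted p under 0.05 there were 1697 genes (10.6%), 898 of them higher (5.62%) and 799 lower (5%). Fold changes are treated over WT throughout, and their median over all genes was -0.02 on the log2 scale. For 72.5% of the genes the 95% confidence interval of the fold change lay within 2-fold in either direction. The groups did not overlap in CPM for any of the 41, against 4.89% of all genes. With library size alone in place of the scaling used, 39 genes were higher and 10 lower, a share of 79.6% higher against 68.3%. A gene among the 41 need not differ from WT without the drug. For untreated Bbs2-/- against WT in the same fit, the edgeR adjusted p was 2.05e-05 for Jade3 and 0.479 for Tmem268. The plot of fold change against level shows the 41 genes against the rest.

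**Figure D1:**
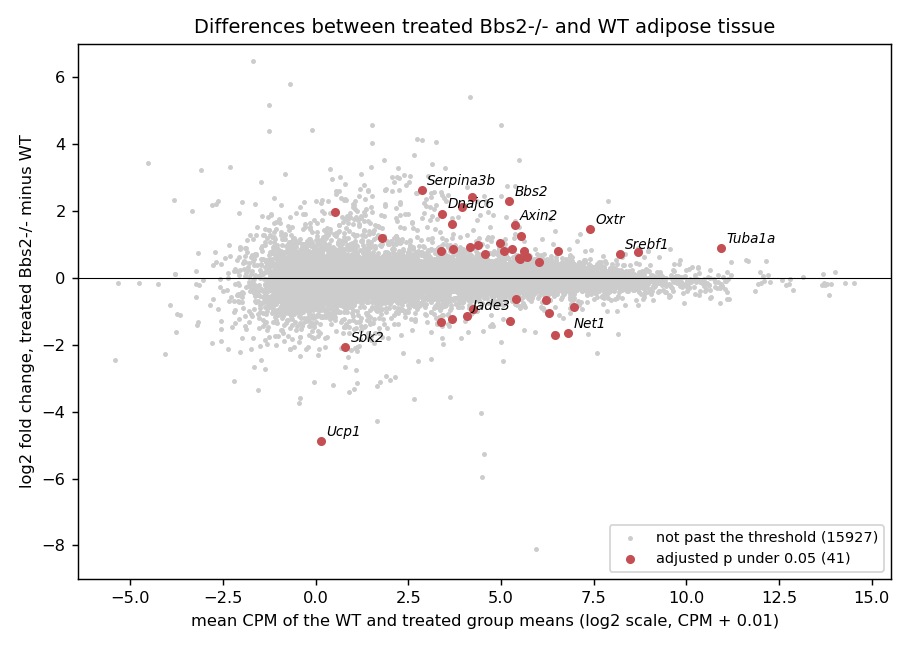
Each point is 1 of the 15968 genes tested, with the mean level of the WT and treated groups on the x axis (log2 scale) and the log2 fold change of treated Bbs2-/- over WT on the y axis; the 41 genes with an adjusted p under 0.05 are red. Of the 41, 21 lie at least 1 from 0, and Ucp1, near the floor of detection, lies lowest among them at -4.88.

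The length of this list depended on single libraries. Without WT 2 the fit called 3 genes, without WT 3 it called 8, without WT 4 it called 14, without treated 1 it called 12 and without treated 2 it called 10. Without untreated 2, 3 or 4, which lend only their spread, it called 21, 19 and 17. Without WT 1 it called 49 genes, split 24 higher and 25 lower, of which 26 were among the 41. DESeq2 on the same libraries called 281 genes (1.85% of the 15180 to which it gave an adjusted p), which held all 41. In each of the 25 alternative fits all 41 genes kept the sign of their fold change, and Bbs2 was the only one that passed in every fit. Jade3 and Dnajc6 each passed in 22 of 25, and the other 38 genes in 4 to 21.

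**Figure D2:**
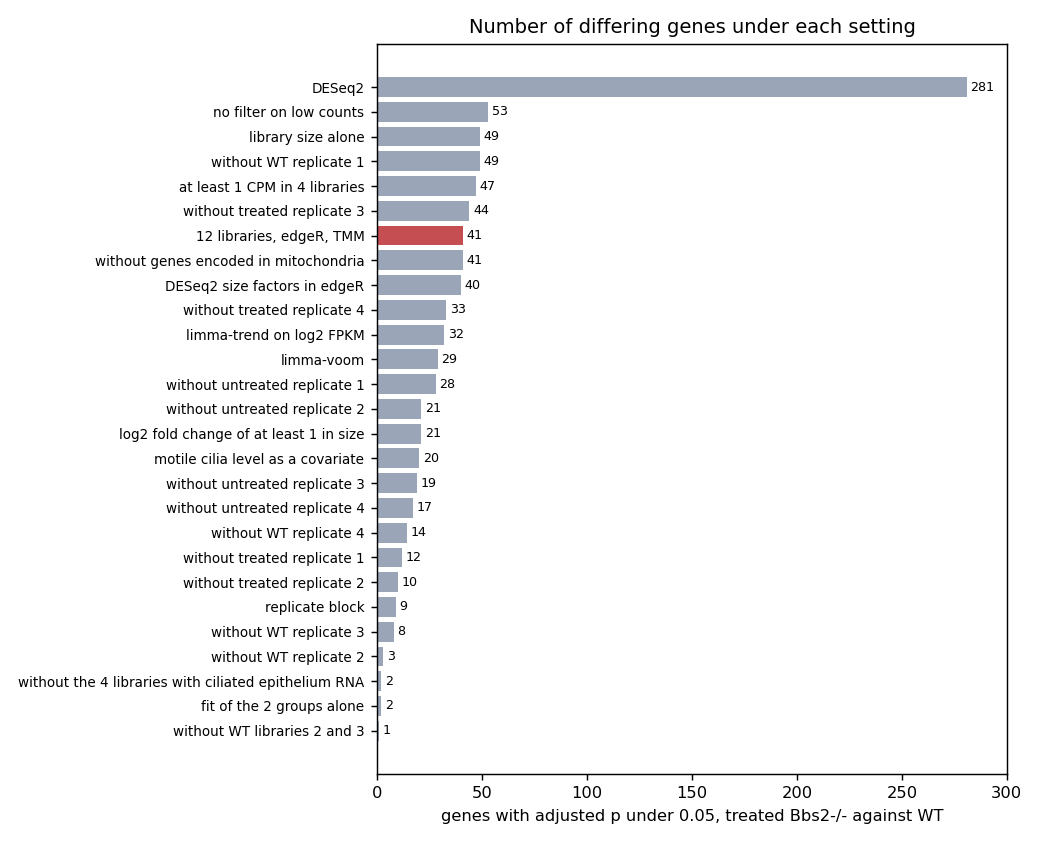
Bars give the number of genes with an adjusted p under 0.05 between treated Bbs2-/- and WT (x axis) under each setting (y axis), with the fit reported here in red at 41. The counts run from 1 without WT 2 and WT 3 to 281 with DESeq2.

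Bbs2 itself separated the groups most sharply, and in the direction opposite to a lost transcript. The WT libraries had 12.1, 12.5, 12.7 and 12.7 CPM, and those labelled treated Bbs2-/- had 65.4, 62.7, 53.7 and 64.2. This was a log2 fold change of 2.30 with an SE of 0.11 (adjusted p = 1.7e-06 in edgeR), and the untreated Bbs2-/- libraries had 53.7 to 70.6 CPM. Counts summed over a gene can come from outside a deleted part, so they do not test the loss of function. Every direction here is between libraries as labelled. Of 65 genes tested within 5 Mb of Bbs2 on chromosome 8, Bbs2 alone passed, and 12 had an unadjusted p under 0.05 against 10.6% of all genes.

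The genes that passed are described by their known roles, a grouping made after the values were seen and not tested for enrichment. Among those with roles in feeding and insulin action, Angptl8, Srebf1 and Mid1ip1, whose transcripts insulin or feeding raises, were higher in treated libraries. Pdk4, which fasting raises, was lower, as was Grb14, an inhibitor of the insulin receptor. The promoters of Angptl8 and Pdk4 are printed because these genes had the highest and the lowest fold change among these, and that of Axin2 because it is the target gene of another pathway described below. The windows come from RefSeq on GRCm38.p6, 250 bases before the start of transcription in lower case and 50 bases after it in capitals, 5′ to 3′ on the strand of the gene. Angptl8 lies at chr9:21835260-21835559 (plus strand), Pdk4 at chr6:5496229-5496528 (minus strand) and Axin2 at chr11:108920099-108920398 (plus strand).
Angptl8: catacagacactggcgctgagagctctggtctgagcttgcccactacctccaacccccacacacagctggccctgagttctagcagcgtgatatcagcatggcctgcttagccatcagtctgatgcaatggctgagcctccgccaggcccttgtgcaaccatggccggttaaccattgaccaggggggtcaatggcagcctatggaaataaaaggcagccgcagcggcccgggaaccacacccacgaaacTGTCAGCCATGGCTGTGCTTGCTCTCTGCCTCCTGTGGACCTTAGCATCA
Pdk4: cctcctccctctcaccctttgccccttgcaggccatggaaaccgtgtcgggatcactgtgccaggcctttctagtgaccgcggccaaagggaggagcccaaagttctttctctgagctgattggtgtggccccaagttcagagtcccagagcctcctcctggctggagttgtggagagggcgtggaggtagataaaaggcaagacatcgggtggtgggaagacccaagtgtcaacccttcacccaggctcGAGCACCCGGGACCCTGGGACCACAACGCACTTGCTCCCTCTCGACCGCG
Axin2: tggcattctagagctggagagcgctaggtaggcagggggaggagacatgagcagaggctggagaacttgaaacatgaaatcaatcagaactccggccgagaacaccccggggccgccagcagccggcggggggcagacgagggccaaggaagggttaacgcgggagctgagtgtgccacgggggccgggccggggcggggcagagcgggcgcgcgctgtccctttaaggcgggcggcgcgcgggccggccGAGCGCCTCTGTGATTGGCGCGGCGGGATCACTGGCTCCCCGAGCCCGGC

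Of the 41 genes, 33 were matched in the RefSeq promoter table, with 44 promoters among them. None of the 3 windows printed holds, on either strand, the E-box CACGTG, the sterol regulatory element TCACNCCAC, the TCF/LEF motif CTTTGA or the FOXO motif GTAAACA. Over the 44 promoters the E-box was found in 7, those of 5 genes (Fam214a, Net1, Oxtr, Rcor2 and Wdr86), against 7.15% of all 32851 promoters of that length. CTTTGA was found in 5 (16% of all), GTAAACA in 2 (3.65%) and TCACNCCAC in 0 (1.24%). These matches describe letters in the windows and do not show binding.

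Angptl8, a secreted inhibitor of lipoprotein lipase that insulin induces in fat and liver, had 6.48, 4.73, 6.97 and 5.29 CPM in WT 1 to 4 and 49.05, 23.6, 14.1 and 38.1 in treated 1 to 4. Every treated library was above every WT library, and treated 3 was the lowest of its group. Treated and WT libraries differed by 2.41 on the log2 scale, with an SE of 0.34 and an edgeR adjusted p of 0.0199, with 11.8 to 20.1 CPM in untreated Bbs2-/-.

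Srebf1 encodes the transcription factor SREBP-1, which drives fatty acid synthesis genes. It had 214, 254, 218 and 213 CPM in WT and 360, 314, 326 and 472 in treated libraries, where treated 4 was highest. Treated and WT libraries differed by 0.71 on the log2 scale, with an SE of 0.13 and an edgeR adjusted p of 0.0477. Untreated Bbs2-/- libraries, at 144 to 164 CPM, lay on the other side of WT.

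Mid1ip1, whose protein promotes polymerization of acetyl-CoA carboxylase, had 41.8, 34.0, 30.3 and 36.3 CPM in WT and 59.8, 60.9, 56.4 and 70.7 in treated libraries. The groups were well apart, at a log2 fold change of 0.80 (SE 0.11, edgeR adjusted p = 0.0191), with 40.5 to 49.3 CPM in untreated libraries. The fatty acid synthesis enzymes themselves did not pass. Fasn, fatty acid synthase, had 1707 to 2955 CPM in WT and 1372 to 3381 in treated libraries (log2 fold change -0.03, 95% interval -0.61 to 0.55), and Scd1, a desaturase, had an interval of -0.49 to 0.87. Of 30 lipogenesis genes tested, edgeR called 1 higher (Srebf1) and 0 lower, and DESeq2 called Srebf1 and Dgat2 higher and Insig2 lower. At an unadjusted p under 0.05 in edgeR 3 were higher and 2 lower, against 10.6% of all genes in either direction, and the median of the 30 was 0.02.

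Pdk4, the kinase that shuts pyruvate out of the citric acid cycle in fasting, had 132, 178, 82.0 and 148 CPM in WT 1 to 4 and 24.9, 39.6, 53.5 and 47.0 in treated 1 to 4. All treated libraries lay below all WT libraries, of which WT 3 was lowest. Treated and WT libraries differed by -1.71 on the log2 scale, with an SE of 0.26 and an edgeR adjusted p of 0.0284, and untreated libraries had 46.5 to 71.5 CPM. Of 38 lipolysis and fatty acid oxidation genes tested, Pdk4 was the 1 that passed in edgeR, and DESeq2 also called Angptl4, likewise lower. At an unadjusted p under 0.05, 8 were lower and 1 higher against 10.6% of all genes, and the median was -0.11. Without WT 1 there were 16 of 38, of which 2 were higher, against 14.9% of all genes, with a median of -0.23. Without WT 2 and WT 3 there were 4 of 38 against 8.05% of all genes, with a median of 0.02.

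Grb14, an adaptor that binds and inhibits the insulin receptor, had 47.4, 69.1, 48.6 and 49.2 CPM in WT and 27.9, 18.4, 20.6 and 20.0 in treated libraries. WT 2 was high and treated 1 the highest of its group, with no overlap (log2 fold change -1.30, SE 0.22, edgeR adjusted p = 0.0462), and untreated libraries had 20.1 to 41.6. It was the 1 gene of 37 tested insulin signalling genes that passed, and the list's median was 0.01. Bcat1, the cytosolic aminotransferase of branched-chain amino acids, had 14.3, 15.7, 14.9 and 14.3 CPM in WT and 5.17, 5.23, 6.77 and 6.29 in treated libraries. It was lower, and the libraries of each group lay close together (log2 fold change -1.33, SE 0.20, edgeR adjusted p = 0.0266), with 6.94 to 14.9 CPM in untreated libraries. It and Bbs2 were the 2 genes called in the fit of the 8 libraries alone. Of 19 genes of branched-chain amino acid breakdown, none other passed, and Bcat2, the mitochondrial aminotransferase, had an interval of -0.57 to 0.34.

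Zfp467, a zinc finger protein that favours adipocyte over bone cell fate, was higher (21.4 to 26.0 CPM in WT, 34.6 to 57.1 in treated, log2 fold change 0.81). Ccdc3, a protein that adipocytes secrete, was lower (140 to 213 CPM in WT, 80.9 to 106 in treated, log2 fold change -0.86), both at an edgeR adjusted p of 0.0462. With Srebf1, Zfp467 made 2 higher and 0 lower of 42 adipogenesis regulators tested in edgeR (median 0.15), while DESeq2 called 3 higher and 1 lower. At an unadjusted p under 0.05 in edgeR 9 were higher and 2 lower, against 10.6% of all genes. Pparg, the master regulator of that list, had 147 to 197 CPM in WT and 180 to 406 in treated libraries and did not pass (log2 fold change 0.65, 95% interval 0.18 to 1.12, edgeR adjusted p = 0.297).

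Ucp1, the uncoupling protein of brown and beige adipocytes, was near the floor of detection. It had 47, 24, 16 and 56 counts in WT 1 to 4 and 2, 0, 2 and 1 in treated 1 to 4. The treated libraries were all under the floor of 3 counts per library and below every WT library. It passed the test (edgeR adjusted p = 0.0485), and its fitted log2 fold change of -4.88 (SE 0.88) rests on those few counts and on the prior count. Untreated libraries had 76, 8, 51 and 14 counts. In bulk tissue, fewer cells of a type and less RNA per cell cannot be told apart. Cidea, another gene of brown and beige fat, had 12.4 to 22.3 CPM in WT and 5.09 to 8.85 in treated libraries (log2 fold change -1.38, 95% interval -1.99 to -0.77) and did not pass (edgeR adjusted p = 0.0817). Of 16 brown and beige genes tested, edgeR called 1 lower, and DESeq2 called both Ucp1 and Cidea lower.

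**Figure D3:**
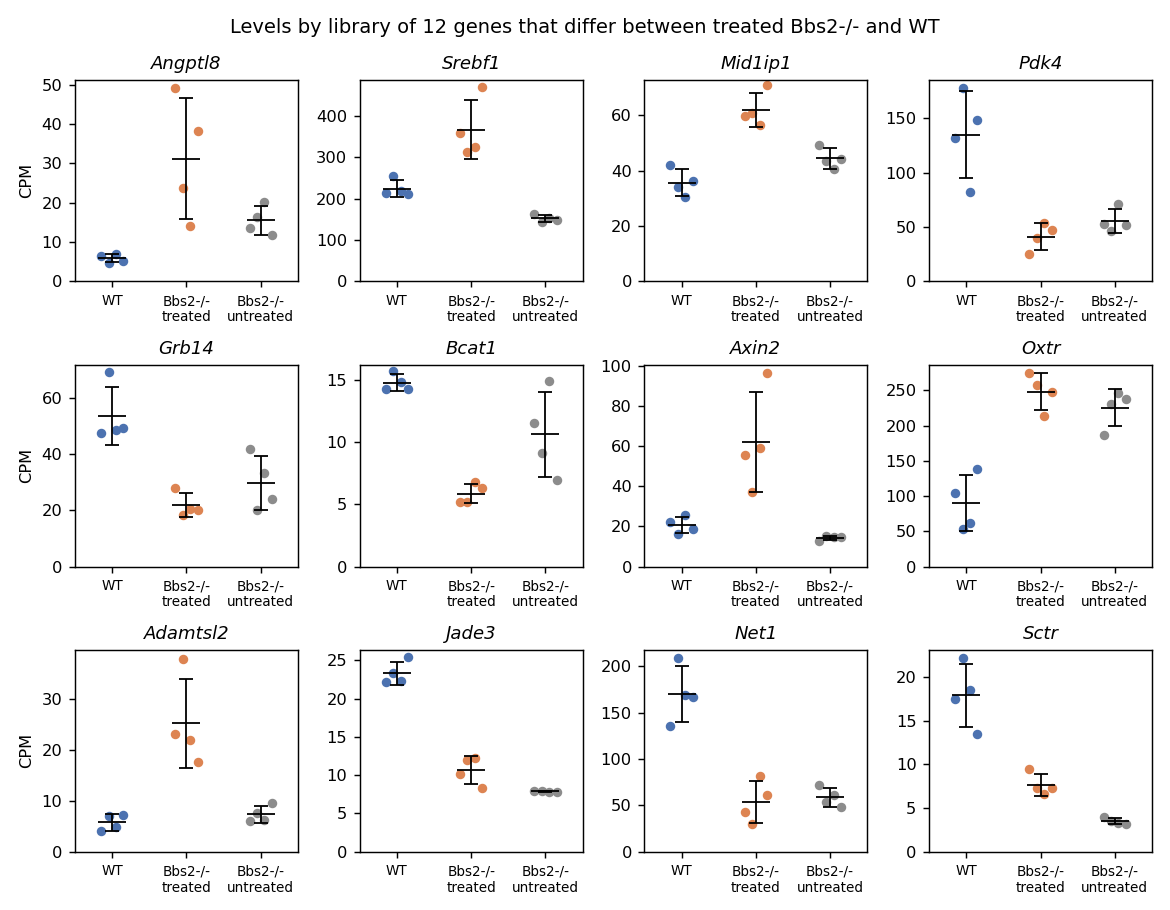
Points are single libraries (CPM, y axis from 0) of WT, treated Bbs2-/- and untreated Bbs2-/- for 12 genes that passed the test, with the group mean as a bar and its SD as whiskers (n = 4). WT and treated libraries do not overlap in any panel, and the place of the untreated libraries varies: Axin2 is at 12.7 to 15.3 CPM there, below all WT libraries, and Oxtr at 187 to 246, above them.

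Another group consists of Axin2 and regulators of chromatin and transcription. Axin2 is a scaffold of the complex that destroys beta-catenin, and a common target gene by which Wnt signalling restrains itself. It had 22.1, 16.4, 25.5 and 18.8 CPM in WT 1 to 4 and 55.5, 36.9, 58.9 and 96.2 in treated 1 to 4. Treated 4 was the highest and treated 2 the lowest of its group, still above all WT libraries. Treated and WT libraries differed by 1.58 on the log2 scale, with an SE of 0.24 and an edgeR adjusted p of 0.0273, and untreated libraries, at 12.7 to 15.3 CPM, lay below WT.

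Nkd1, another Wnt feedback inhibitor, overlapped between the groups (11.9 to 21.6 CPM in WT, 18.7 to 48.0 in treated, edgeR adjusted p = 0.236). Jade3, a subunit of a histone acetyltransferase complex encoded on the X chromosome, had 22.2, 23.3, 22.3 and 25.5 CPM in WT and 10.1, 11.98, 12.2 and 8.34 in treated libraries. It was lower in all 4 treated libraries (log2 fold change -1.13, SE 0.12, edgeR adjusted p = 0.00582), and untreated libraries had 7.74 to 7.95 CPM.

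Kdm6b, a demethylase that removes the repressive H3K27 mark, was higher (35.3 to 48.1 CPM in WT, 59.1 to 66.7 in treated, log2 fold change 0.61), as was Bahcc1, a chromatin reader (23.6 to 30.4 and 46.7 to 57.5 CPM, log2 fold change 0.87). Rcor2, a partner of the demethylase LSD1, was higher at 13.5 to 31.9 against 4.52 to 7.30 CPM (log2 fold change 1.60), and treated 4 was its highest library. Their edgeR adjusted p-values were 0.0382, 0.012 and 0.0462. Untreated libraries were at 30.1 to 34.2, 27.4 to 35.0 and 3.90 to 6.49 CPM for these 3 genes, below every treated library.

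A further group encodes secreted and matrix proteins. Adamtsl2, a matrix protein that binds fibrillin and latent TGF-beta binding protein, had 3.98, 7.09, 4.84 and 7.21 CPM in WT and 23.1, 37.8, 21.96 and 17.7 in treated libraries. Its lowest treated library was above its highest WT library by more than 2-fold, and treated and WT libraries differed by 2.12 on the log2 scale, with an SE of 0.27 and an edgeR adjusted p of 0.012, with 6.08 to 9.58 CPM in untreated libraries. Adamts5, a protease that cuts aggrecan and versican, was also higher (280 to 325 CPM in WT, 490 to 585 in treated, log2 fold change 0.79, edgeR adjusted p = 0.0199). Serpina3b, a serine protease inhibitor of a family of close paralogs, was higher (1.42 to 3.26 and 4.04 to 17.4 CPM, log2 fold change 2.62, edgeR adjusted p = 0.0485), and reads shared with its paralogs make this value uncertain. Untreated libraries had 0.41 to 1.33 CPM of Serpina3b, below WT.

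Crim1, a membrane-bound binder of bone morphogenetic proteins, was lower (77.7 to 105 and 53.3 to 62.0 CPM, log2 fold change -0.66, edgeR adjusted p = 0.0439). Chst15, which sulfates chondroitin sulfate, was lower as well (45.0 to 55.8 and 28.9 to 38.8 CPM, log2 fold change -0.62, edgeR adjusted p = 0.0462). Of 41 structural and remodelling genes of the extracellular matrix list, none passed in edgeR, 8 were lower and 2 higher at an unadjusted p under 0.05 against 10.6% of all genes, and the median was -0.08. Thbs1, thrombospondin 1, was among the 8 at 200 to 694 CPM in WT and 101 to 210 in treated libraries, where treated 3 overlapped with WT (log2 fold change -1.68, edgeR adjusted p = 0.122), and DESeq2 called it.

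Receptors and membrane proteins also passed. Oxtr, the oxytocin receptor, had 105, 53.2, 62.3 and 139 CPM in WT 1 to 4 and 275, 257, 213 and 247 in treated 1 to 4. The WT libraries varied more than the treated ones, and WT 1 and WT 4 were highest among them. Treated and WT libraries differed by 1.47 on the log2 scale, with an SE of 0.25 and an edgeR adjusted p of 0.0462, and untreated libraries had 187 to 246 CPM. Without the 4 libraries that hold RNA of ciliated epithelium, Oxtr and Bbs2 were the genes called. Of the WT group, that fit kept only WT 2 and WT 3, the lowest for Oxtr, whose library names are of another type than the rest. Within WT, ciliated epithelium RNA and type of library name therefore cannot be told apart. In the fit without WT 2 and WT 3, Bbs2 alone was called.

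Sctr, the secretin receptor, had 17.5, 22.2, 18.5 and 13.5 CPM in WT and 9.47, 7.30, 6.56 and 7.34 in treated libraries. It was lower at a log2 fold change of -1.22 (SE 0.17, edgeR adjusted p = 0.0191), and untreated libraries had 3.16 to 4.02 CPM. Trpv2, a cation channel, was lower (22.03 to 33.2 CPM in WT, 12.03 to 15.6 in treated, log2 fold change -0.93, edgeR adjusted p = 0.0462), while untreated libraries had 29.4 to 42.9. Cd274, which encodes the immune checkpoint ligand PD-L1, was higher (17.4 to 26.5 and 29.7 to 51.9 CPM, log2 fold change 1.04, edgeR adjusted p = 0.0485). The Nogo receptor family members Rtn4rl1 (49.9 to 58.4 and 73.8 to 77.6 CPM, log2 fold change 0.48) and Rtn4rl2 (1.47 to 2.59 and 3.81 to 5.28 CPM, log2 fold change 1.18) were both higher, with edgeR adjusted p-values of 0.0462 and 0.0473. Untreated libraries overlapped with WT for Rtn4rl1, at 49.8 to 61.4 CPM, and with treated for Rtn4rl2, at 4.20 to 5.39. Rtn4rl1 had the smallest fold change of the 41.

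The last group concerns the cytoskeleton and membrane traffic. Dnajc6 encodes auxilin, which strips clathrin from vesicles. It had 3.48, 3.24, 5.24 and 5.70 CPM in WT 1 to 4 and 19.6, 17.2, 18.5 and 11.6 in treated 1 to 4. Treated 4 was lowest and still above all WT libraries (log2 fold change 1.92, SE 0.22, edgeR adjusted p = 0.00721), and untreated libraries had 9.16 to 12.2 CPM.

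Net1, an exchange factor that activates RhoA, had 136, 208, 169 and 166 CPM in WT and 42.7, 29.7, 82.0 and 61.4 in treated libraries. It was lower in every treated library (log2 fold change -1.66, SE 0.27, edgeR adjusted p = 0.0379), with 48.7 to 71.5 CPM in untreated libraries. Tuba1a, an alpha-tubulin with close paralogs, was higher at 2022 to 3124 against 1257 to 1508 CPM (log2 fold change 0.89, edgeR adjusted p = 0.0395), and Nedd9, a scaffold of focal adhesions, at 88.6 to 149 against 55.9 to 73.5 CPM (log2 fold change 0.81, edgeR adjusted p = 0.0485). Spsb1, a SOCS-box adaptor of a ubiquitin ligase, was higher at 44.4 to 100 against 22.6 to 33.9 CPM (log2 fold change 1.26, edgeR adjusted p = 0.0462). The kinase gene Sbk2 was lower at a low level (1.69 to 3.58 and 0.49 to 0.88 CPM, log2 fold change -2.08, edgeR adjusted p = 0.0199). Fam214a was lower too (93.4 to 112 and 40.4 to 68.6 CPM, log2 fold change -1.04, edgeR adjusted p = 0.0288), and it had 24.9 to 35.5 CPM in untreated libraries.

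The 8 genes not yet described were all higher, with log2 fold changes between 0.56 (St5) and 1.98 (Wdr86, at no more than 2.89 CPM). The steadiest of them across alternative fits was Tmem268, a membrane protein gene with 16.4 to 19.4 CPM in WT, 26.8 to 31.8 in treated and 18.2 to 20.6 in untreated libraries (log2 fold change 0.71, edgeR adjusted p = 0.012, passed in 21 of 25). Fam160a1 had 10.7 to 13.6 CPM in WT, 20.2 to 29.9 in treated and 7.53 to 7.93 in untreated libraries (log2 fold change 0.94, edgeR adjusted p = 0.0191). Rhbdl3, which encodes a rhomboid-like membrane protein, had 12.1 to 15.7, 22.7 to 31.7 and 10.2 to 14.2 CPM in the same order (log2 fold change 0.99, edgeR adjusted p = 0.0199). Treated libraries lay above both other groups for these 3 genes.

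Of the pathways that the series set out to compare, sphingolipid and inflammatory genes gave no call in edgeR. The target of the inhibitor, Ugcg, had 37.5, 28.9, 34.1 and 36.2 CPM in WT and 37.0, 51.1, 39.7 and 35.1 in treated libraries. The groups overlapped, treated 2 was highest, and the log2 fold change was 0.25 (95% interval -0.08 to 0.58, edgeR adjusted p = 0.596). None of 40 tested genes of sphingolipid metabolism and none of 24 of glycosphingolipid metabolism passed, with medians of -0.08 and -0.10, while DESeq2 called 1 (Smpd3, lower) and 0. At an unadjusted p under 0.05 there were 4 and 1 of them, against 10.6% of all genes. The interval lay within 2-fold for 33 of 40 and 22 of 24, so a 2-fold difference lay outside the interval of most of them. Smpd3, a neutral sphingomyelinase, had the groups apart at 14.7 to 17.1 CPM in WT and 7.97 to 12.5 in treated libraries (log2 fold change -0.80) but did not pass (edgeR adjusted p = 0.179). Of 38 lysosomal genes none passed in edgeR or DESeq2, 7 were lower and 2 higher at an unadjusted p under 0.05 against 10.6% of all genes, and the median was -0.17 (-0.05 without WT 1). The cathepsin gene Ctsb had 2131 to 3073 CPM in WT and 1595 to 2124 in treated libraries (edgeR adjusted p = 0.322).

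Macrophage markers gave no call and wide intervals. C1qa, a complement subunit of tissue macrophages, had 114, 88.0, 73.9 and 134 CPM in WT and 152, 115, 84.7 and 85.8 in treated libraries, and 594 to 933 in untreated ones. The WT and treated ranges overlapped, with a log2 fold change of 0.10 (95% interval -0.41 to 0.60, edgeR adjusted p = 0.933). The summed level of the 24 macrophage genes was 974.8 to 3683 CPM in WT, 946.3 to 2464 in treated and 8419 to 11560 in untreated libraries. None of the 24 passed in edgeR, DESeq2 or limma-voom, and 2 had an unadjusted p under 0.05 in edgeR against 10.6% of all genes. The log2 fold change was below 0 for 16 of the 24 and above 0 for 8. Their median was -0.29, and without WT 1 it was 0.17.

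WT 1 set the sign of that median: Adgre1, which encodes F4/80, had 170 CPM in WT 1 against 16.5 to 33.7 in the other WT libraries and 17.4 to 57.1 in treated ones. Only 5 of the 24 had an interval within 2-fold, so for most macrophage genes the data do not set a limit of that size on a difference. The list of lipid-associated macrophage genes (15 tested, median -0.45, -0.14 without WT 1) and that of inflammatory mediators (45 tested, median 0.15) had 0 members that passed in edgeR, and DESeq2 called 0 and 1 (Ccl9, lower). At an unadjusted p under 0.05 they had 2 and 8, of which 1 was higher, against 10.6% of all genes. MHC class II (11 tested) had 0 at either threshold in edgeR and 0 in DESeq2, with a median of 0.13.

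Mature adipocyte genes overlapped between the groups in their summed level and gave no call in edgeR, while DESeq2 called Dgat2 higher and Cidea lower. Their summed level was 69400 to 102600 CPM in WT, 69770 to 103800 in treated and 34990 to 42470 in untreated libraries. WT 1 was the lowest WT library in this sum, and the other WT libraries had 91708 CPM or more. Of 25 tested, 7 had an unadjusted p under 0.05 (6 lower, 1 higher) against 10.6% of all genes, and the median was -0.13. Without WT 1 there were 8 of 25, of which 1 was higher, against 14.9% of all genes, with a median of -0.23. Without WT 2 and WT 3 there were 2 of 25 against 8.05% of all genes, with a median of 0.04. Fabp4, among the most abundant of the list, had 9640 to 21330 CPM in WT and 10419 to 15259 in treated libraries. Its log2 fold change was -0.50 (95% interval -0.99 to -0.005, edgeR adjusted p = 0.464). Adipoq, adiponectin, had a log2 fold change of -0.38 (95% interval -0.83 to 0.07). Retn, resistin, had 804 to 1321 CPM in WT and 697 to 1690 in treated libraries (interval -0.64 to 0.51). Lep, leptin, had 1252 to 2596 and 1623 to 3349 CPM (interval -0.39 to 0.73). Cyp2e1 spread widely within the treated group, with 428, 856, 2108 and 2299 CPM in treated 1 to 4 against 732 to 1356 in WT and 7.79 to 30.6 in untreated libraries (log2 fold change 0.32, interval -0.78 to 1.43).

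**Figure D4:**
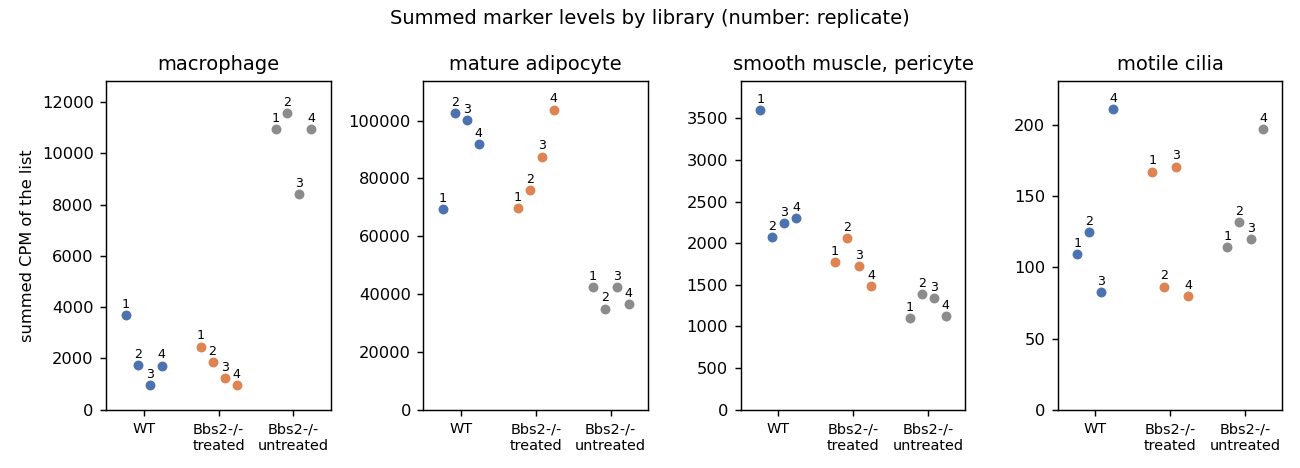
Points are single libraries, numbered by replicate, with the summed CPM of 4 marker lists on y axes from 0. Macrophage and adipocyte sums of WT and treated libraries overlap, at 974.8 to 3683 and 946.3 to 2464 CPM for macrophages, while WT 1 stands high for smooth muscle.

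Smooth muscle and pericyte genes had the highest share of the lists at the unadjusted threshold, with 11 of 15 (9 lower, 2 higher) against 10.6% of all genes, none past the adjusted one, and a median of -0.79. Without WT 1 there were 8 of 15 against 14.9% of all genes, with a median of -0.32. Without the 4 libraries with ciliated epithelium RNA there was 1 of 15 against 10.2% of all genes, with a median of -0.28. Without WT 2 and WT 3 there were 11 of 15 against 8.05% of all genes, with a median of -1.13. Acta2, smooth muscle actin, had 519, 319, 309 and 335 CPM in WT and 248, 219, 136 and 150 in treated libraries. The groups did not overlap, WT 1 was highest, and the gene did not pass (log2 fold change -0.98, edgeR adjusted p = 0.159). DESeq2 called 2 genes of the list, Acta2 and Tagln, both lower. WT 1, the highest library for these genes, also held the epididymal Crisp1 RNA given above, whose part in the result was not tested.

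Other lists are described by their counts. Of 16 MHC class I genes none passed in edgeR, 3 lower ones passed in DESeq2 (B2m, H2-D1 and H2-T22), and 5 had an unadjusted p under 0.05 (4 lower) against 10.6% of all genes, with a median of -0.16. Without WT 1 there were 2 calls and 8 at the unadjusted threshold, against 14.9% of all genes. H2-D1, a classical class I heavy chain, had 1548 to 2295 CPM in WT and 1218 to 1382 in treated libraries (log2 fold change -0.56, edgeR adjusted p = 0.109), and class I genes share reads among themselves. Of 26 cell cycle genes 0 passed in edgeR or DESeq2 and 2 had an unadjusted p under 0.05 (10.6% of all genes) at a median of 0.00. Without WT 1 there were 11, of which 10 were higher, against 14.9% of all genes, with a median of 0.34. Of 31 oxidative phosphorylation genes 0 passed in edgeR or DESeq2, and the interval lay within 2-fold for 30. At an unadjusted p under 0.05 in edgeR there were 3, all lower, a share near the 10.6% of all genes. The log2 fold change was below 0 for 28 of the 31. Without WT 1 there were 8 of 31, of which 0 were higher, against 14.9% of all genes, with a median of -0.18. Without WT 2 and WT 3 there were 0 of 31, with a median of 0.01.

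Genes of the cilium other than Bbs2 gave no call in edgeR. The BBSome and its partners, 16 genes tested, had 1 higher (Bbs2) and 0 lower, a median of -0.05 and 15 intervals within 2-fold. Intraflagellar transport and transition zone genes, which build and gate the cilium, had 0 of 37 called in edgeR or DESeq2. They had 1 at an unadjusted p under 0.05 in edgeR against 10.6% of all genes, a median of 0.01 and 36 intervals within 2-fold. Hedgehog signalling, which runs through the primary cilium, had 0 of 15 called in edgeR, 2 in DESeq2, both higher, and 6 at an unadjusted p under 0.05 in edgeR (5 higher), against 10.6% of all genes. Gli2, a transcription factor of the pathway, had 2.5 to 5.55 and 6.93 to 18.1 CPM in WT and treated libraries (log2 fold change 1.53, edgeR adjusted p = 0.116). Ptch1, the main receptor, had the opposite sign (log2 fold change -0.53, 95% interval -0.88 to -0.19, edgeR adjusted p = 0.242), and Gli1, the usual readout of the pathway, had a log2 fold change of 0.01 (interval -1.01 to 1.02).

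**Figure D5:**
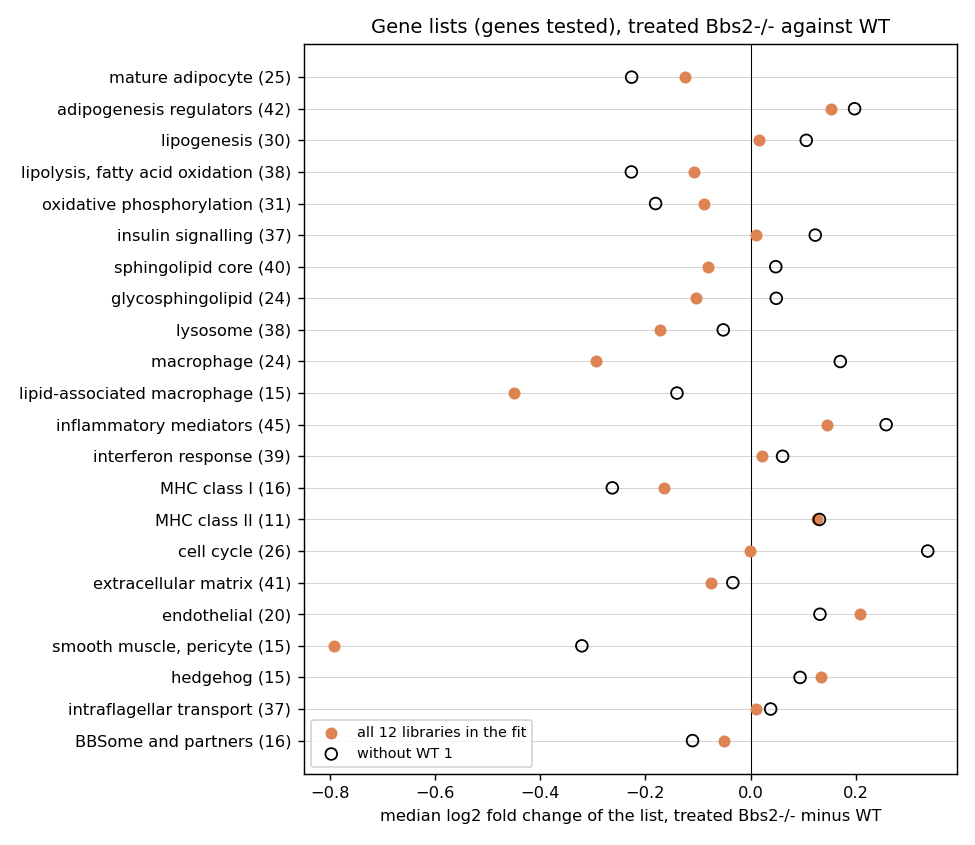
Points give the median log2 fold change (x axis, treated Bbs2-/- minus WT) of each gene list (y axis, with the number of genes tested), for all 12 libraries (filled) and without WT 1 (open). Most medians lie close to 0, and the smooth muscle and pericyte list moves from -0.79 to -0.32 without WT 1.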

How the data were processed

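RNA of the tissue was read from stranded mRNA libraries, per the labels' protocols. The authors deposited estimated counts per gene for the 12 libraries without scaling, with totals of 16317865 to 20224200 that limit the precision for low genes. They also deposited log2 FPKM values, whose upper quartile was 3.96 in every library. The build, per the submitters' processing notes, was mm10. For the aligner, the counter and the strand setting, "not given in the sources used here" applies, and values of close paralogs or overlapping genes are therefore uncertain. Of 53431 identifiers, 52207 were matched in GENCODE M21 on the same build.

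After rounding, counts went into the robust quasi-likelihood test of edgeR 4.0.16 (R 4.3.3) with TMM scaling and the filterByExpr filter by group. The 12 libraries shared 1 model with 3 group means, and treated Bbs2-/- minus WT was the contrast. Benjamini-Hochberg adjustment covered the 15968 genes tested, with a threshold of 0.05. The biological coefficient of variation was 0.29. No 2 libraries of a group, in any of the 3 groups, agreed within sampling noise. The procedure was tested on simulated data.

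The comparison, the gene lists and the naming rule were chosen with earlier results of these data known, so lists get counts and medians beside all genes. The rule names Bbs2 and Ugcg. It adds the 10 highest and 10 lowest fold changes and the 10 smallest p-values among protein-coding genes that passed without overlap and averaged 1 or more in log2 CPM. It adds up to 4 passing members of a list, the 3 most abundant members of 8 lists, and passing genes within 5 Mb of Bbs2. Of the 41 genes that passed, the rule names 28; the other 13, and list members outside the rule, were named after their values were seen. Some list members, among them many that the rule names for abundance, are counted without values of their own. C1qa, Adgre1, Adipoq, Retn and Lep, which are given values, lie outside the rule. Alternatives used DESeq2 1.42.0, limma 3.58.1 (voom on counts, trend on log2 FPKM), other scalings and filters, a replicate block, a motile cilia covariate and fits without libraries.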

Additional observations from a re-analysis of the deposited data

Results flagged for a closer look

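The levels of 121 named genes in WT and in treated libraries made 242 groups of 4 libraries. Of these, 19 had a highest or lowest library set apart from the other 3 beyond the 95% limit of Dixon's test. Many of the genes were named after their values were seen, so this number cannot be set against the rate that chance gives. WT 1 was high for Ptgs2 (490 CPM against 0.27 to 1.33), Myh11 (697 against 67.4 to 112), Cnn1 (149 against 2.57 to 7.63), Actg2 (171 against 0.473 to 4.91), Acta2 (519 against 309 to 335), Tagln (237 against 75.1 to 102), Adgre1 (170 against 16.5 to 33.7) and Trpv2 (33.2 against 22 to 23). It was low for Dgat2 (1675 against 2055 to 2096). WT 2 was high for Grb14 (69.1 against 47.4 to 49.2), Srebf1 (254 against 213 to 218) and Mkks (25.4 against 18.3 to 18.9). WT 4 was high for Cxcl14 (64.8 against 9.75 to 17.7).

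Treated 3 was high for Thbs1 (210 against 101 to 117), Smpd3 (12.5 against 7.97 to 8.11) and Krt14 (0.318 against 0 to 0.0525). Treated 4 was high for Dgat2 (3084 against 2584 to 2656) and Rcor2 (31.9 against 13.5 to 16), and low for H2-K1 (808 against 927 to 936).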

How the results depend on the processing

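In edgeR 41 genes differed. The number was 281 with DESeq2, 2 in the fit of the 2 groups alone, 20 with the motile cilia level as a covariate, 1 without WT 2 and WT 3 (whose library names are of another type than the rest), 2 without the 4 libraries with ciliated epithelium RNA, and 21 with a minimum log2 fold change of 1. The motile cilia level was the summed list on the log2 scale, which was higher in WT 2 (125 CPM) than in WT 1 (109.5). It did not follow the Foxj1 counts in every library, so that fit does not show what adjusting for ciliated epithelium would do. Leaving out 1 library at a time gave 3 (without WT 2) to 49 (without WT 1). DESeq2's size factors (40), library size alone (49), no filter (53), at least 1 CPM in 4 libraries (47), limma-voom (29), limma-trend on log2 FPKM (32) and leaving out mitochondrial genes (41) kept the number within 1.5 times. WT and treated libraries share replicate numbers, and same-numbered libraries correlated at 0.005, 0.278, -0.149 and -0.144 in their deviations from the group mean. Differently numbered ones ran from -0.302 to 0.344. These few values show no pairing by number, and they cannot exclude that same-numbered libraries were handled together. Not every library correlated best with its own number, and the fit with the replicate block called 9 genes. Of 1025 values of the called genes over the alternatives, 533 kept their side of the threshold, 492 fell under it and 0 changed sign. Of 1199 list medians 45 moved by more than the spread between WT libraries, and of 1994 values of named genes not called 21 passed. The cause of these changes was not tested, apart from fewer libraries where some were left out. Genes near 3 counts per library could not be measured at this depth.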

Other observations

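Cholesterol synthesis and uptake genes, which SREBP-2 drives, had 24 members tested, with 0 called in edgeR and 2 (higher) in DESeq2, 3 higher at an unadjusted p under 0.05 (5.62% of all genes) and a median log2 fold change of 0.11. Without WT 1 the list had 1 call, 8 higher at the unadjusted threshold (14.9% of all genes passed it in either direction in that fit) and a median of 0.16.

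Of 22 circadian clock genes 0 were called in edgeR, 2 in DESeq2 (Nfil3 and Usp2, both higher) and 4 were higher at an unadjusted p under 0.05 (5.62% of all genes), with a median of 0.21. Usp2, a rhythmic deubiquitinase, had 5.44 to 8.78 CPM in WT and 9.04 to 14.7 in treated libraries (edgeR adjusted p = 0.136). Of 14 heat shock genes 0 were called in edgeR or DESeq2, 4 were lower and 1 higher at an unadjusted p under 0.05 (10.6% of all genes in either direction), and the median was -0.26. The hour of tissue collection is not in the labels. Dgat2, which makes triglyceride from diglyceride, had 1675 to 2096 CPM in WT, 2584 to 3084 in treated and 1237 to 1668 in untreated libraries, and was called by DESeq2 but not by edgeR (adjusted p = 0.196).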
